A study of Homo sapiens with 16 samples.

Results

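Genes for chaperones, degradation factors and secretory machinery of the endoplasmic reticulum (ER) were followed in a human B cell line at 2 levels of the transcription factor MYC, with and without an inhibitor of protein N-myristoylation. The set held 40 genes, chosen by a list of symbols from the 58051 gene identifiers of the table. They comprised 12 chaperones and co-chaperones, 8 genes of disulfide formation and exchange, 10 genes of ER-associated degradation (ERAD) and membrane quality control, and 10 genes of translocation, glycosylation and vesicle transport. All 40 symbols were found once, and 39 passed the expression filter, a mean normalized count of at least 10 over all libraries. The exception was KDELR3, a receptor that returns escaped ER proteins, which was at 0 in 15 libraries and had 2 reads in 1 library of medium MYC with inhibitor.

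Proteins bound for the cell surface, the secretory route or the ER itself enter the ER through the Sec61 channel, fold with the help of chaperones, receive glycans and disulfide bonds, and leave in coated vesicles. Chains that fail to fold are drawn back through the membrane, ubiquitylated and destroyed by the proteasome, the process called ERAD. When unfolded chains build up, the sensors IRE1, PERK and ATF6 start the unfolded protein response, which raises many of these genes, and B cells that become antibody-secreting plasma cells enlarge the same machinery.

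RNA was sequenced from P493-6, an Epstein-Barr virus-immortalised B cell line in which doxycycline represses a MYC transgene and estrogen activates the viral factor EBNA2. High-MYC cells received neither additive. Medium-MYC cells received 0.1 µg/mL doxycycline together with 1 µM beta-estradiol. After 24 h, cells of both kinds received either DMSO or 100 nM IMP1088, which blocks the N-myristoyltransferases NMT1 and NMT2, enzymes that attach myristate to N-terminal glycines, and RNA was taken 24 h later. The 4 groups, each of 4 libraries, are called control or inhibitor after the treatment, with high-MYC or medium-MYC before it. MYC level, doxycycline and estradiol changed together, so their effects cannot be told apart. The study used 1 immortalised line, 1 dose and 1 time of treatment.

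Reads counted in genes ran from 8755296 to 13858534 per library. The MYC transcript itself read 31649 ± 2130 (SD, n = 4) in high-MYC control, 47542 ± 505 in high-MYC inhibitor, 959 ± 48.7 in medium-MYC control and 1382 ± 51.2 in medium-MYC inhibitor, so all 16 libraries matched their MYC label. The first principal component over all tested genes set high apart from medium MYC (82.3% of the variance), and the next set inhibitor apart from DMSO (4.14%). The labels do not say whether the 4 libraries of a group came from separate cultures, so p-values measure the spread between these libraries, which may be technical. In whole-culture RNA, fewer cells of a type and less RNA per cell cannot be told apart.

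At medium MYC the inhibitor raised nearly the whole set: 37 of the 39 tested genes were called higher and 0 lower, with a median log2 change of 0.49 over the set against -0.0062 over all 13765 tested genes. A gene was called when its Benjamini-Hochberg adjusted p in limma was under 0.05, two-sided, on log2 of the normalized count plus 1, and in this comparison 11.7% of all tested genes were called higher and 14.6% lower. The 2 genes not called were ERO1B and OS9. All 39 estimates were above 0 in limma, so the count lower was also 0 at an unadjusted p under 0.05, and edgeR and DESeq2 likewise called 0 lower. In 34 genes every medium-MYC inhibitor library lay above every medium-MYC control library, against 12.4% of all tested genes. The 3 called genes whose libraries overlapped were DNAJC10, SYVN1 and WFS1.

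At high MYC the same dose moved fewer of these genes. Of 39, 13 were called higher, 4 lower and 22 not called, with a median log2 change of 0.032 against -0.020 over all tested genes. Over all tested genes 10.5% were called higher and 16.3% lower. The 4 genes called lower were CALR, PDIA3, PDIA4 and SYVN1, and all 4 were called higher at medium MYC. The 13 genes called higher at high MYC were also called higher at medium MYC, 20 genes were called at medium MYC alone, and 2 were called at neither level. The balance of calls at high MYC depended on the scaling: quantile normalization gave 1727 higher and 1770 lower calls over all tested genes in place of 1442 and 2247, and 15 higher and 1 lower in the set. It also moved the median of the set at high MYC from 0.032 to 0.073, and the median was 0.064 without high-MYC inhibitor replicate 1 and 0.051 without replicate 4 of that group. The count called lower was 2 when either of these libraries or high-MYC control replicate 1 was left out.

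The difference between the responses was tested directly, as the log2 change at medium MYC minus that at high MYC. It was called higher for 29 of the 39 genes and lower for 0, with a median difference of 0.42 against 0.016 over all tested genes. Over all tested genes 5.33% were called higher and 3.31% lower. All 39 estimates were above 0, so the count lower was again 0 without adjustment, and edgeR and DESeq2 each called 29 higher and 0 lower. The genes whose difference was not called were DNAJC10, ERO1B, EDEM2, DERL1, OS9, SELENOS, WFS1, SEC61B, SRP54 and SPCS3. Of these, DNAJC10, OS9, WFS1, SRP54 and SPCS3 were called higher under a correction for GC content, and all of these but DNAJC10 also when 1 of certain libraries was left out. The set took a share of all normalized counts of 0.553% ± 0.0114 (SD, n = 4) in high-MYC control, 0.578% ± 0.0087 in high-MYC inhibitor, 0.456% ± 0.0078 in medium-MYC control and 0.674% ± 0.0039 in medium-MYC inhibitor.

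**Figure D1:**
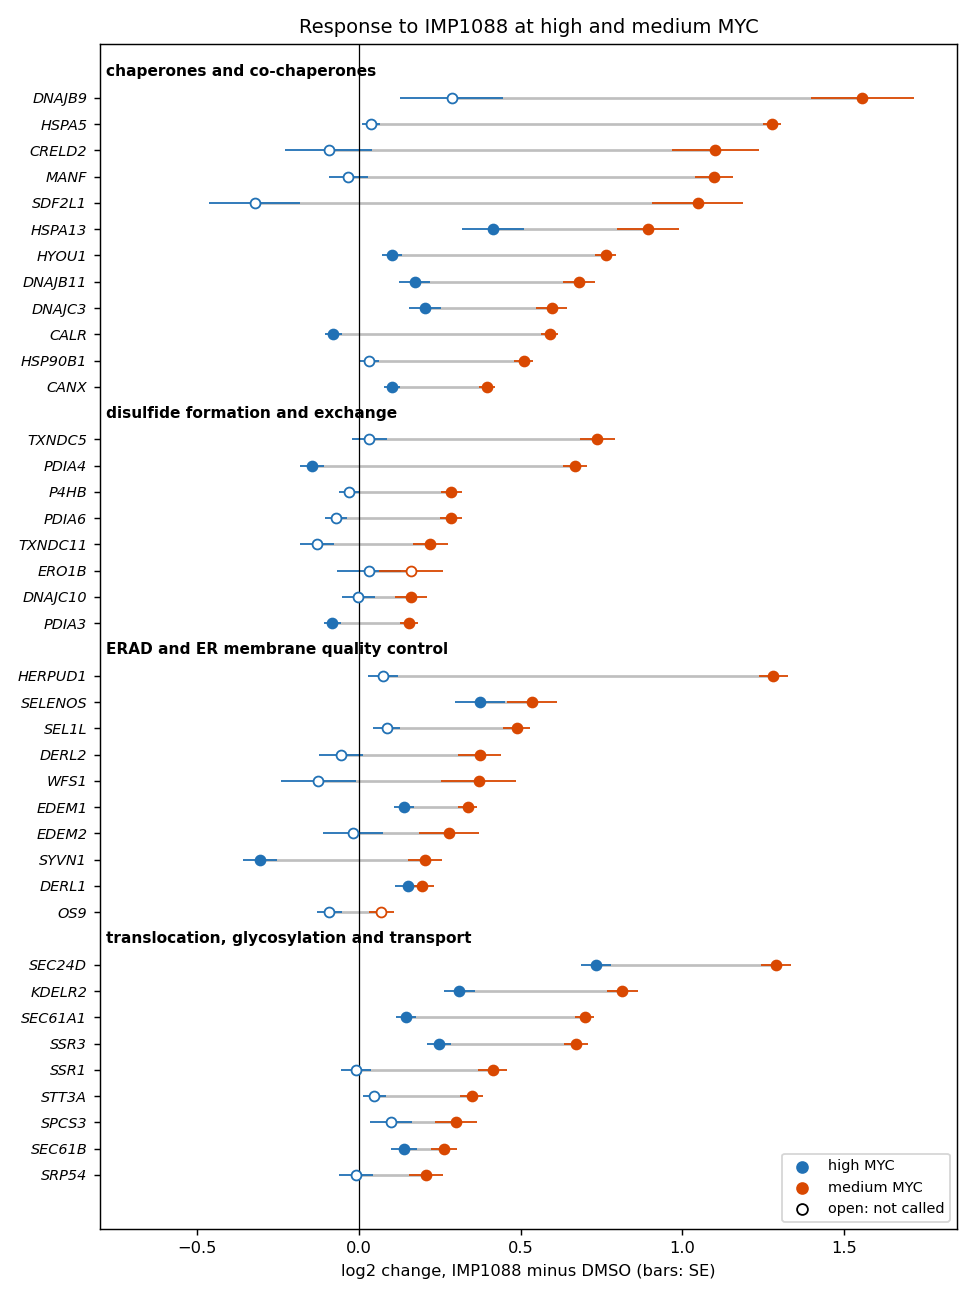
Log2 change with IMP1088 at high MYC (blue) and medium MYC (orange) for the 39 tested genes by role, with bars for the standard error and open symbols for changes that were not called. All 39 medium-MYC points lie to the right of their high-MYC partners, and the gap is widest for SDF2L1, at 1.37.

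All 12 chaperones and co-chaperones rose with the inhibitor at medium MYC (median log2 change 0.83), and for all 12 the response was larger there than at high MYC, against 11.7% and 5.33% of all tested genes called higher. HSPA5 encodes BiP, the main Hsp70 chaperone of the ER lumen, which also holds the stress sensors inactive. Its normalized counts were 4831, 5066, 5183 and 4998 in high-MYC control and 5142, 5163, 5203 and 5101 in high-MYC inhibitor. They were 2891, 3058, 2922 and 3081 in medium-MYC control and 7245, 7231, 7386 and 7115 in medium-MYC inhibitor. The medium-MYC control libraries were the lowest of the 16 and the medium-MYC inhibitor libraries the highest, without overlap, whereas the high-MYC groups overlapped. At medium MYC the change was 2.42-fold (log2 change 1.28, SE 0.027, limma adjusted p = 3.32e-18), and at high MYC it was not called (log2 change 0.038, SE 0.027, limma adjusted p = 0.339), although quantile normalization gave a call (0.073, limma adjusted p = 0.0409). Fold changes here are on the scale of normalized count plus 1. The responses differed by 1.24 on the log2 scale (SE 0.039, limma adjusted p = 7.02e-15).

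DNAJB9, also called ERdj4, a J-domain partner of BiP that restrains the sensor IRE1, showed the largest change at medium MYC. Its normalized counts were 114, 129, 72.6 and 121 in medium-MYC control and 327, 332, 290.4 and 316 in medium-MYC inhibitor. Every inhibitor library was above every control library, a 2.94-fold change (log2 change 1.56, SE 0.16, limma adjusted p = 1.63e-07). At high MYC the control libraries were spread from 113 to 199.8 and overlapped the inhibitor libraries, at 206, 202, 210.3 and 179.8, and the change was not called (limma adjusted p = 0.199). The responses to inhibitor differed between MYC levels (difference 1.27 on the log2 scale, SE 0.22, limma adjusted p = 6.69e-04).

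MANF, SDF2L1 and CRELD2, small soluble ER proteins known as targets of the unfolded protein response, rose at medium MYC and were not called at high MYC. MANF binds BiP, and its medium-MYC libraries read 183, 202, 225 and 214 with DMSO and 449, 431, 437 and 447 with inhibitor (log2 change 1.10, SE 0.06, limma adjusted p = 8.80e-12). Its high-MYC libraries lay between 363 and 416 in both groups, with a change of -0.032 that was not called. SDF2L1, a partner of the co-chaperone ERdj3, read 82.4, 58.2, 83.1 and 55.0 in medium-MYC control and 111, 158, 148 and 159 in medium-MYC inhibitor (log2 change 1.05, SE 0.14, limma adjusted p = 7.13e-06). At high MYC SDF2L1 read 128, 130.3, 123 and 163 without and 109.7, 113, 101 and 108 with inhibitor. Those high-MYC groups did not overlap, with the inhibitor libraries below, yet the change of -0.32 was not called (SE 0.14, limma adjusted p = 0.0984), although it was called when limma was fitted to the high-MYC groups alone (adjusted p = 0.0449). Its difference between MYC levels, 1.37 (SE 0.20, limma adjusted p = 7.94e-05), was the largest of the set. CRELD2 read 112, 103, 107 and 96.8 in medium-MYC control and 214, 254, 231 and 204 in medium-MYC inhibitor (log2 change 1.10, SE 0.13, limma adjusted p = 1.99e-06). Its high-MYC groups overlapped, at 74.2 ± 17.9 and 68.6 ± 9.69 (SD, n = 4).

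CALR encodes calreticulin, the soluble lectin chaperone that binds freshly glycosylated chains, and CANX encodes calnexin, its membrane-bound relative. CALR read 4396, 4417, 4201 and 4208 in high-MYC control and 4033, 4065, 4151 and 4059 in high-MYC inhibitor. It read 4989, 4914, 5188 and 5029 in medium-MYC control and 7531, 7598, 7696 and 7458 in medium-MYC inhibitor. The inhibitor libraries lay below the control libraries at high MYC and above them at medium MYC, without overlap at either level. The rise at medium MYC was 1.51-fold (log2 change 0.59, SE 0.026, limma adjusted p = 2.22e-13). The fall at high MYC was small (log2 change -0.078, SE 0.026, limma adjusted p = 0.0279), and its call was lost under 13 of 31 alternatives, including fits without high-MYC control replicate 1 or 2 or high-MYC inhibitor replicate 1, 2 or 4. CANX rose at both levels, from 6641 ± 137 to 7131 ± 117 (SD, n = 4) at high MYC and from 4102 ± 99.8 to 5397 ± 107 at medium MYC. Its response was larger at medium MYC (difference 0.29 on the log2 scale, SE 0.037, limma adjusted p = 1.15e-05).

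HSP90B1, which encodes the ER Hsp90 called GRP94, overlapped between high-MYC groups at 5165 ± 83.9 and 5279 ± 181 (SD, n = 4), and rose from 4341 ± 60.2 to 6184 ± 246 at medium MYC. HYOU1, the large Hsp70 relative that exchanges the nucleotide of BiP, rose from 1597 ± 59.9 to 2710.4 ± 45.2 at medium MYC, 1.70-fold. Its rise at high MYC was 0.10 on the log2 scale and was no longer called without high-MYC control replicate 4 or high-MYC inhibitor replicate 2 or 4. HSPA13, a microsomal Hsp70 relative, rose by 0.41 at high and 0.89 at medium MYC. The call of its difference, 0.48 (SE 0.13, limma adjusted p = 0.0269), was lost without a mean trend and without high-MYC control replicate 3, high-MYC inhibitor replicate 3, medium-MYC control replicate 1 or medium-MYC inhibitor replicate 1. The J-domain proteins DNAJB11 and DNAJC3, which deliver clients to BiP, rose by 0.68 and 0.60 at medium MYC. At high MYC they rose by 0.17 and 0.20, and the first of these calls was lost under a correction for GC content.

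**Figure D2:**
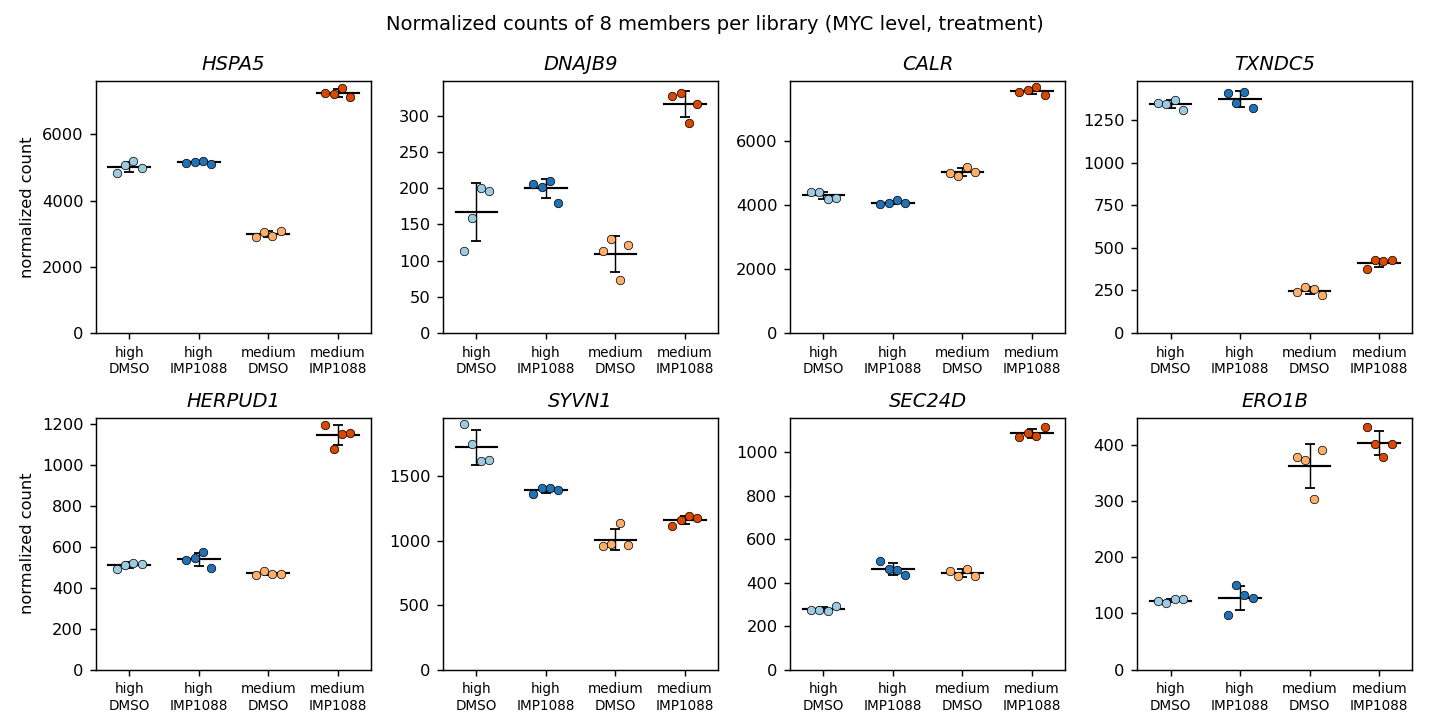
Normalized counts of 8 genes in each of the 16 libraries (points), with the mean and SD of each group of 4 (bars), on linear axes from 0. HSPA5, DNAJB9, CALR, HERPUD1 and SEC24D were highest in all 4 medium-MYC inhibitor libraries, TXNDC5 and SYVN1 were higher at high MYC, and ERO1B was higher at medium MYC in both treatments.

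The promoters of these genes were read because binding elements of the unfolded protein response are well known there, and 36 of the 40 genes had a window in the RefSeq table on GRCh38.p14, covering 250 bases before and 50 after the annotated start. The ER stress response element (ERSE) was searched as CCAAT, 9 free bases and CCACG, its short form ERSE-II as ATTGG, 1 free base and CCACG, the core of the unfolded protein response element as TGACGTGG and the amino acid response element as TGATGNAAT, on both strands. ERSE occurred in 6 of the 36 windows (16.7%), against 0.0769% of all 35116 windows. ERSE-II occurred in 3 windows (8.33%), against 0.0541%, and TGACGTGG in 4 (11.1%), in DNAJC10, HYOU1, TXNDC11 and KDELR3, against 0.729%. TGATGNAAT occurred in none of the 36, against 0.991%. The half-element CCACG, which lies inside both ERSE forms, occurred in 25 windows (69.4%), against 38.1%. These are matches of letters and not measured binding. The 35116 windows were not limited to tested genes, to 1 window per symbol or to a like base composition, whereas each gene of the set had 1 window. Since the elements were also already known from promoters of such genes, the shares are a description and not a test.

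The ERSE matches are printed 5′ to 3′ along the element, with the fixed letters in capitals and the 9 free bases in lower case, because they show what the genes share outside their expression values. Positions count from the RefSeq start, with -1 the base before it.
HSPA5, -66 to -48: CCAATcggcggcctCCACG
HSP90B1, -194 to -176: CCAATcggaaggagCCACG
HSP90B1, -89 to -71, opposite strand: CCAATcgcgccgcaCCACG
CALR, -225 to -207, opposite strand: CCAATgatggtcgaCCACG
CANX, -151 to -133: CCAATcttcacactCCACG
CRELD2, -80 to -62, opposite strand: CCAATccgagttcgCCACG
ERO1B, -243 to -225, opposite strand: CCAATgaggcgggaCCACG

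The ERSE-II matches lay in 3 further genes, and the pair in HYOU1 had the same letters.
HYOU1, -185 to -175, opposite strand: ATTGGaCCACG
HYOU1, -79 to -69, opposite strand: ATTGGaCCACG
HERPUD1, -117 to -107: ATTGGgCCACG
SDF2L1, -188 to -178, opposite strand: ATTGGtCCACG

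The upstream sequences of HSPA5 and HERPUD1, the gene of BiP and the ERAD gene with the largest difference in response, are given with the ERSE of HSPA5 and the ERSE-II of HERPUD1 in capitals. The HSPA5 stretch is chr9:125241344-125241593 on the minus strand, 250 bases that end just before the RefSeq start. The HERPUD1 stretch is chr16:56931892-56932047 on the plus strand, 156 bases that end just before the first base of the gene in GENCODE release 29.
HSPA5: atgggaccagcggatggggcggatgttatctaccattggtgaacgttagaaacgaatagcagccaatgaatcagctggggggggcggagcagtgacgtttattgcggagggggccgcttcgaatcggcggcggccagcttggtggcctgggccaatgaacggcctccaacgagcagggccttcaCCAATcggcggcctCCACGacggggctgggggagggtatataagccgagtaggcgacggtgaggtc
HERPUD1: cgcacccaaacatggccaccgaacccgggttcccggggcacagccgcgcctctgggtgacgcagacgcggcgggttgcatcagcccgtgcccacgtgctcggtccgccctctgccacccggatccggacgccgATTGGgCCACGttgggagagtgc

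The 9 genes with an ERSE or ERSE-II match had a median log2 change of 0.76 with inhibitor at medium MYC, ranging from 0.16 for ERO1B to 1.28 for HERPUD1. The 26 tested genes with a window and neither match had a median of 0.37, with a range from 0.070 for OS9 to 1.56 for DNAJB9. At high MYC the medians were 0.031 and 0.016. The ranges overlapped at both levels, no test was made of this split, and ERO1B carried the element without a called response. Apart from ERO1B and HERPUD1, the genes with a match were all chaperones or co-chaperones, a role with a median of 0.83 at medium MYC. The split thus largely followed role, and the part of the element was not tested. The chaperones and co-chaperones without a match, DNAJB9, MANF, HSPA13, DNAJB11 and DNAJC3, also rose at medium MYC. Within this role the genes with a match did not have the larger changes. The largest, 1.56, was that of DNAJB9, without a match, and the smallest, 0.40, that of CANX, with one.

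Of the 8 genes of disulfide formation and exchange, 7 rose at medium MYC, by a median of 0.25, and at high MYC 0 were called higher and 2 lower. Of all tested genes, 11.7% were called higher at medium MYC, and 10.5% higher and 16.3% lower at high MYC. At high MYC 0 were also higher at an unadjusted p under 0.05 in limma, edgeR or DESeq2. PDIA4, the isomerase ERp72, read 1599.7, 1578, 1582 and 1511 in high-MYC control and 1390.5, 1413, 1436 and 1432 in high-MYC inhibitor. It read 1087, 1072, 1182 and 1046 in medium-MYC control and 1699, 1719, 1820.5 and 1732 in medium-MYC inhibitor. All inhibitor libraries lay below the controls at high MYC and above them at medium MYC. PDIA4 was 1.11-fold lower with inhibitor at high MYC (log2 change -0.14, SE 0.037, limma adjusted p = 0.00523) and rose 1.59-fold at medium MYC (log2 change 0.67, SE 0.037, limma adjusted p = 1.04e-11). The difference of 0.81 was the largest in this role (SE 0.052, limma adjusted p = 7.95e-10). The fall was not called under quantile normalization.

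PDIA3, the isomerase ERp57 that works with calnexin and calreticulin, had a similar pattern of smaller size, with 2462 ± 36 against 2326 ± 31.9 (SD, n = 4) at high MYC and 2294 ± 44.1 against 2555 ± 67.1 at medium MYC. Its fall at high MYC (log2 change -0.082, SE 0.027, limma adjusted p = 0.0297) was not called under 12 of 31 alternatives, among them edgeR, DESeq2 and fits without high-MYC control replicate 1, 2 or 3 or high-MYC inhibitor replicate 1, 3 or 4. P4HB, the founding protein disulfide isomerase, rose by 0.29 and PDIA6 by 0.29 at medium MYC, and neither was called at high MYC. TXNDC11, a thioredoxin-domain partner of the EDEM proteins, rose by 0.22. DNAJC10, the reductase ERdj5, rose by 0.16, and that call was lost without a mean trend, without medium-MYC control replicate 3 or without medium-MYC inhibitor replicate 1.

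TXNDC5, the thioredoxin-family protein ERp46, showed the largest dependence on MYC level. It read 1350.4, 1344, 1369 and 1309.9 in high-MYC control and 1411, 1352, 1414 and 1320.1 in high-MYC inhibitor. It read 239.9, 268, 261 and 222 in medium-MYC control and 376, 427, 421 and 428 in medium-MYC inhibitor. All medium-MYC libraries lay far below all high-MYC libraries, and within medium MYC the inhibitor libraries were the higher. The inhibitor raised it 1.67-fold at medium MYC (log2 change 0.74, SE 0.054, limma adjusted p = 1.03e-09), and its high-MYC groups overlapped. Among controls it was 5.42-fold lower at medium MYC (log2 change -2.44, SE 0.054, limma adjusted p = 3.82e-20). TXNDC5 shares exons on its own strand with the read-through gene BLOC1S5-TXNDC5, so its value is uncertain to the extent that reads were divided between them.

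ERO1B, the oxidase that recharges protein disulfide isomerase, went the other way with MYC level. It read 121, 119, 126 and 125 in high-MYC control and 97.9, 149.7, 134 and 127 in high-MYC inhibitor. It read 379, 372, 304 and 391 in medium-MYC control and 431, 400.3, 378 and 401 in medium-MYC inhibitor. The MYC levels did not overlap, and ERO1B was 2.91-fold higher at medium MYC among controls (log2 change 1.54, SE 0.10, limma adjusted p = 5.71e-12). The inhibitor did not move it past the threshold at either level (limma adjusted p = 0.859 at high and 0.262 at medium MYC).

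Among the 10 genes of ERAD and membrane quality control, 9 rose at medium MYC, by a median of 0.35, while 3 rose and 1 fell at high MYC. The difference in response was called for 5 of the 10. Of all tested genes, 11.7% were called higher at medium MYC, 10.5% higher and 16.3% lower at high MYC, and 5.33% higher for the difference. HERPUD1, a small membrane protein that organises the ubiquitin ligase complex and is a classical target of the unfolded protein response, had the largest change of the 10. It read 494, 509.9, 524 and 519 in high-MYC control and 536, 548, 576 and 499 in high-MYC inhibitor. It read 464, 482, 469 and 468 in medium-MYC control and 1195, 1078, 1154 and 1158 in medium-MYC inhibitor. The other 12 libraries lay between 464 and 576, and all 4 medium-MYC inhibitor libraries were at 1078 or more. The change was 2.43-fold at medium MYC (log2 change 1.28, SE 0.045, limma adjusted p = 8.70e-15) and not called at high MYC (log2 change 0.075, SE 0.045, limma adjusted p = 0.243). The responses differed by 1.21 on the log2 scale (SE 0.064, limma adjusted p = 4.19e-11).

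SYVN1 encodes HRD1, the ubiquitin ligase at the core of the main ERAD complex, and SEL1L its adaptor. SYVN1 read 1905, 1753, 1617 and 1628 in high-MYC control and 1361, 1406, 1407 and 1397 in high-MYC inhibitor. It read 959.6, 978, 1137 and 966 in medium-MYC control and 1114, 1162, 1189.6 and 1178 in medium-MYC inhibitor. At high MYC every inhibitor library was below every control library, a 1.24-fold fall (log2 change -0.31, SE 0.052, limma adjusted p = 1.36e-04). At medium MYC it rose by 0.20 on the log2 scale (SE 0.052, limma adjusted p = 0.00546), with medium-MYC control replicate 3, at 1137, inside the range of the inhibitor libraries. SYVN1 shares exons with FAU on the same strand and with MRPL49 on the opposite strand. SEL1L was called at high MYC under quantile normalization alone (0.12, limma adjusted p = 0.0308) and rose from 1163 ± 44.3 to 1631 ± 46.8 (SD, n = 4) at medium MYC, 1.40-fold.

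EDEM1, which trims mannose from misfolded glycoproteins, rose at both levels, from 3433 ± 142 to 3779 ± 32.2 (SD, n = 4) at high MYC and from 2945 ± 83.8 to 3719 ± 33.3 at medium MYC (difference 0.20 on the log2 scale, SE 0.042, limma adjusted p = 0.00368). SELENOS, which recruits the ATPase p97 to the membrane, and DERL1, a derlin of the retrotranslocation channel, also rose at both levels. Their differences in response, 0.16 (SE 0.11) and 0.042 (SE 0.056), were not called. DERL2 rose at medium MYC, from 378 ± 7.14 to 489.9 ± 20.3, and not at high MYC (difference 0.43 on the log2 scale, SE 0.096, limma adjusted p = 0.00569). EDEM2, the mannosidase that acts before EDEM1, rose by 0.28 and WFS1, the wolframin membrane protein, by 0.37 at medium MYC. The EDEM2 call was lost with DESeq2 and without medium-MYC control replicate 3 or 4 or medium-MYC inhibitor replicate 3 or 4, and the WFS1 call without medium-MYC control replicate 4 or medium-MYC inhibitor replicate 2 or 3. OS9, a lectin that delivers glycoproteins to HRD1, was not called at either MYC level, with changes of -0.091 and 0.07.

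All 9 tested genes of translocation, glycosylation and transport rose at medium MYC, by a median of 0.41, and 5 of them rose at high MYC. The difference in response was called for 6. These compare with 11.7%, 10.5% and 5.33% of all tested genes called higher. SEC24D, a cargo-binding subunit of the COPII coat, had the largest change of the whole set at high MYC. It read 276, 275, 272 and 292 in high-MYC control and 499, 465, 459 and 433 in high-MYC inhibitor. It read 453, 429, 463 and 432 in medium-MYC control and 1069.5, 1088, 1073 and 1115 in medium-MYC inhibitor. High-MYC control was the lowest group, medium-MYC inhibitor the highest, and the remaining groups overlapped in between. The inhibitor raised SEC24D 1.66-fold at high MYC (log2 change 0.73, SE 0.047, limma adjusted p = 1.96e-10) and 2.44-fold at medium MYC (log2 change 1.29, SE 0.047, limma adjusted p = 1.26e-14). The medium-MYC response was the larger (difference 0.56 on the log2 scale, SE 0.066, limma adjusted p = 6.46e-06).

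KDELR2, the receptor that retrieves escaped ER proteins from the Golgi, read 587, 597, 678 and 638 in high-MYC control and 741, 786, 779 and 792 in high-MYC inhibitor. It read 512, 497, 481 and 534 in medium-MYC control and 866, 877, 939 and 880.3 in medium-MYC inhibitor. The inhibitor libraries were the higher at both levels without overlap, by 1.24-fold at high and 1.76-fold at medium MYC. KDELR2 shares exons with DAGLB on the same strand. SSR3, a subunit of the translocon-associated TRAP complex, rose from 2224 ± 112 to 2638 ± 38.4 (SD, n = 4) at high MYC and from 1047 ± 24.9 to 1669.5 ± 66.4 at medium MYC. Its partner SSR1 rose at medium MYC alone, from 690.3 ± 43.4 to 919 ± 24.7 (difference 0.42 on the log2 scale, SE 0.064, limma adjusted p = 1.25e-04).

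SEC61A1, the pore subunit of the translocation channel, rose 1.11-fold at high and 1.62-fold at medium MYC (difference 0.55 on the log2 scale, SE 0.042, limma adjusted p = 1.33e-08). SEC61B, a small subunit of the same channel, rose by 0.14 and 0.26, and the call at high MYC was lost without high-MYC inhibitor replicate 3. STT3A, a catalytic subunit of the oligosaccharyltransferase that glycosylates chains as they enter, rose from 1304 ± 38.3 to 1662 ± 70.1 (SD, n = 4) at medium MYC and was not called at high MYC (difference 0.30 on the log2 scale, SE 0.051, limma adjusted p = 4.58e-04). SPCS3, a subunit of signal peptidase, and SRP54, the signal-binding protein of the signal recognition particle, rose by 0.30 and 0.21 at medium MYC. Neither was called at high MYC, and their differences of 0.20 (SE 0.091) and 0.22 (SE 0.073) were not called.

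Among control libraries the set was split by MYC level. At medium MYC 14 of the 39 genes were higher and 22 lower than at high MYC, with a median log2 change of -0.16 against 0.017 over all tested genes. Most tested genes differed between the MYC levels, with 38.9% of all tested genes called higher and 37.3% lower, and the counts of the set are to be read against these shares. The values were scaled by median-of-ratios size factors, so a rise or fall here and elsewhere is relative to the other genes. A change in total RNA per cell would not show in them. This comparison shares its medium-MYC control libraries with the inhibitor comparison at medium MYC. The largest falls were those of TXNDC5, at -2.44, SSR3, at -1.08, PDIA6, at -1.06, SDF2L1, at -0.97, and MANF, at -0.91. The largest rises were those of ERO1B, at 1.54, OS9, at 0.84, SELENOS, at 0.74, SRP54, at 0.72, and SEC24D, at 0.67. By role, 6 chaperones rose and 6 fell, 1 disulfide gene rose and 7 fell, 4 ERAD genes rose and 4 fell, and 3 transport genes rose and 5 fell. The calls of HSPA13 (0.25) and HERPUD1 (-0.12) were each lost under 4 of 31 alternatives. HSPA13 lost its call without high-MYC control replicate 1 or medium-MYC control replicate 2 or 4, and HERPUD1 without high-MYC control replicate 3. STT3A, not called in the main fit, was called lower with TMM factors, the replicate block or edgeR. It was also called lower without high-MYC control replicate 4, medium-MYC control replicate 2 or medium-MYC inhibitor replicate 2. EDEM2 was called lower under quantile normalization.

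Among inhibitor libraries the balance between MYC levels was turned round. The shift of each gene from the control comparison is its difference in response given above, and so is not a separate result. At medium MYC 27 genes were higher and 9 lower than at high MYC, with a median of 0.30 against 0.021 over all tested genes, of which 39.7% were called higher and 37.8% lower. All 14 genes that were higher at medium MYC among controls were also higher among inhibitor libraries. Of the 22 that were lower among controls, 11 were higher among inhibitor libraries, 9 were lower and 2 were not called. HSPA5 was one of the 11, with a log2 change between MYC levels of -0.75 among controls and 0.49 among inhibitor libraries. The 9 that stayed lower were CANX, PDIA6, DNAJC10, TXNDC5, SYVN1, DERL1, SSR1, SSR3 and SPCS3. By group means, 28 of the 39 genes were highest in medium-MYC inhibitor and 24 were lowest in medium-MYC control. Over all tested genes, 22.4% were highest and 26.2% were lowest in these respective groups. In 22 genes of the set all 4 medium-MYC inhibitor libraries lay above all other 12 libraries, against 5.09% of all tested genes.

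Markers of antibody-secreting cells moved with MYC level as well. The 6 plasma cell markers were all expressed, and 5 were called lower and 1 higher at medium MYC among controls: JCHAIN changed by -3.52, MZB1 by -2.43 and SDC1 by -1.81, while IRF4 changed by 2.39. With inhibitor 3 of the 6 rose and 1 fell at high MYC, and 4 rose at medium MYC. Their summed normalized counts ran from 10901 to 12319 in high-MYC control, 12871 to 12974.5 in high-MYC inhibitor, 11502 to 12248 in medium-MYC control and 14906 to 15239 in medium-MYC inhibitor. Between MYC levels these sums join the 5 markers that fell with IRF4, which rose, so they do not stand for each marker. Of the 8 B cell markers, 6 were called higher and 2 lower at medium MYC among controls. All 8 were expressed in every group, and with inhibitor 7 fell at high MYC and 4 of the 8 fell in medium-MYC libraries. Their sums ran from 24298 to 24493 and 19661 to 20620 at high MYC, and from 40587 to 41272 and 35973 to 37099.9 at medium MYC, without and with inhibitor. Of all tested genes, 10.5% were called higher and 16.3% lower with inhibitor at high MYC, and 11.7% and 14.6% at medium MYC. Among controls 38.9% of all tested genes were called higher and 37.3% lower at medium MYC. The part of the marker shifts in the results above was not tested. T cell markers summed to between 43.1 and 95.4, with CD3D at 0 in high-MYC inhibitor. Myeloid markers summed to between 41.4 and 84.4, with S100A8 at 0 in 3 groups. Epithelial and fibroblast markers summed to between 64.8 and 94.6 at high and 177 and 238 at medium MYC, with KRT18 at 0 in all 4 groups, and most of the medium-MYC sum was COL1A1, at 164 ± 9.24 and 206 ± 13.1 (SD, n = 4).

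Levels between genes were compared only per length, as normalized count per kilobase of the longest principal transcript. In high-MYC control CALR was the most abundant at 2262 ± 61.6 (SD, n = 4), followed by HSP90B1 at 1807 ± 29.4, SEC61B at 1667 ± 63.5, CANX at 1559 ± 32.2 and HSPA5 at 1284 ± 37.6. The lowest by this measure were CRELD2, at 14.4 ± 3.47, and WFS1, at 21.7 ± 1.96. In medium-MYC inhibitor CALR was again first, at 3978, and HSPA5 had rank 4, at 1854, and TXNDC5 went from rank 14 in high-MYC control to rank 30.

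Further genes of the same pathway gave the setting, and their lists were drawn from known functions. Of 11 stress sensors and their transcription factors, 8 rose and 1 fell with the inhibitor at medium MYC, against 4 and 1 at high MYC, and the difference was called higher for 6. XBP1, the transcription factor activated by IRE1, rose from 405 ± 15 to 843 ± 37.3 (SD, n = 4) at medium MYC and from 1383 ± 22.5 to 1598 ± 36.4 at high MYC (difference 0.85 on the log2 scale, SE 0.054, limma adjusted p = 7.85e-10). DDIT3, the stress factor CHOP, rose from 48.1 ± 8.46 to 154 ± 9.81 at medium MYC and was not called at high MYC (difference 1.41 on the log2 scale, SE 0.27, limma adjusted p = 0.00145). ATF4, the transcription factor translated when PERK is active, rose by 0.34 at medium MYC and was not called at high MYC, where it changed by -0.08. PPP1R15A, which recruits the phosphatase that ends the PERK signal, rose by 0.21 at high and 0.65 at medium MYC.

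Shares and medians of all tested genes are the measure for these lists. At medium MYC 11.7% of all tested genes were called higher and 14.6% lower, at high MYC 10.5% and 16.3%, and for the difference 5.33% and 3.31%. The median difference was 0.19 for the stress sensors and their factors, 0.18 for the folding enzymes, 0.074 for ERAD, 0.17 for translocation, 0.19 for the oligosaccharyltransferase and 0.19 for the coats, against 0.016 over all tested genes.

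Of 28 further folding enzymes and chaperones, 12 rose and 4 fell at medium MYC, 3 rose and 4 fell at high MYC, and the difference was called higher for 9 and lower for 1. The falls at medium MYC and both counts at high MYC were near the shares of all tested genes. MZB1, a chaperone partner in antibody-secreting cells, PPIB, the ER cyclophilin, and FKBP14, an ER prolyl isomerase, had differences of 0.80, 0.58 and 0.63. The gene called lower was QSOX1, a sulfhydryl oxidase, at -0.39, named after its value was seen, and DESeq2 called 0 of the list lower. Of 21 further ERAD genes 4 rose and 0 fell at medium MYC, and the difference was called higher for 4, including DERL3, at 0.59, ERLEC1, at 0.43, and UBXN4, at 0.26. Of 18 further translocation genes 14 rose and 1 fell at medium MYC, and the difference was called for 5, including SEC11C of signal peptidase, at 0.47, SRP68, at 0.30, and SRPRA, at 0.29. Of 10 further oligosaccharyltransferase genes 6 rose and 0 fell at medium MYC, and the difference was called for 5, including MAGT1, at 0.36, OSTC, at 0.32, and STT3B, at 0.22. Of 26 genes of COPII and COPI coats and cargo receptors 20 rose and 0 fell at medium MYC, 10 rose at high MYC, and the difference was called for 15, including TMED2, at 0.49, SAR1A, at 0.38, and COPG1, at 0.35. The lists with 0 lower at medium MYC by limma also had 0 by edgeR and DESeq2, and at an unadjusted p under 0.05 limma gave 0, 0 and 1 lower in the ERAD, oligosaccharyltransferase and coat lists.

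**Figure D3:**
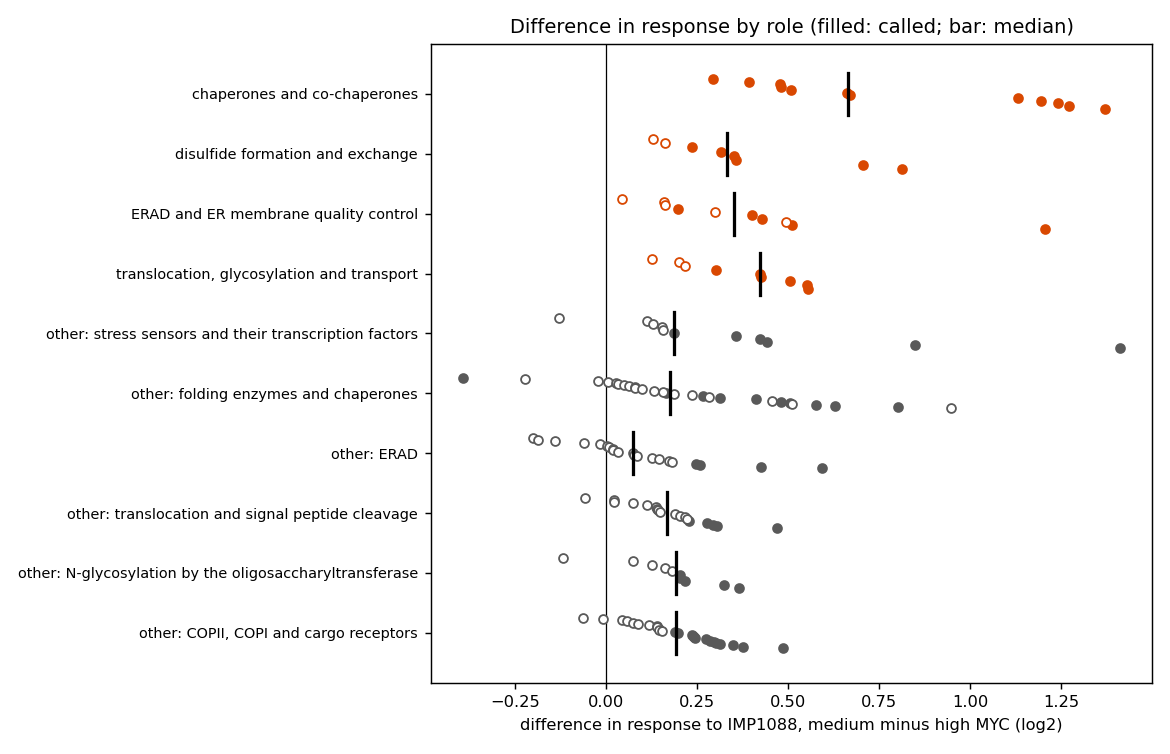
Difference in response to IMP1088 between MYC levels (medium minus high, log2) for the genes of the 4 roles (orange) and of the 6 further lists (grey), with filled symbols for called differences and a bar at each median. The chaperone median, 0.66, is the furthest to the right, and the further ERAD genes, at 0.074, are the nearest to 0.

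Counting could divide reads between overlapping genes, and whether it used strand is not given in the sources used here. In GENCODE release 29, 8 of the 40 genes share exon bases with another gene on the same strand, 16 more with a gene on the opposite strand alone, and 16 with none. The last group includes HSPA5, HERPUD1, MANF, SDF2L1, PDIA4, SSR3 and SEC24D. DNAJB9 overlaps PNPLA8 and THAP5 on the opposite strand and CRELD2 overlaps ALG12, so reads of these pairs could not be told apart without strand. PDIA3 and SSR1 have 2 pseudogenes each that are named after them, and pseudogenes with other names were not searched for.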

How the data were processed

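The authors deposited 1 table of normalized counts, a non-negative expression signal for 58051 Ensembl gene identifiers in 16 libraries. Per the labels' protocols, RNA was extracted with a QIAGEN miRNeasy kit, made into cDNA with a Nugen kit and sequenced on an Illumina HiSeq instrument. The submitters' processing notes name STAR 2.5.2a, RSEM 1.2.31, DESeq2 1.16.1 and GRCh38 without their roles, and the gene annotation and use of strand are not given in the sources used here. In each library 100% of the values were whole multiples of 1 step (tolerance 0.001 reads), so reads were recovered, and the steps equalled median-of-ratios size factors in all 16 libraries. Summed over the gene identifiers, the recovered reads ran from 8755296 to 13858534 per library, which is not the total sequenced. Reads carry no molecular identifiers, so counting precision covers counting error only.

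Symbols were assigned to 56948 identifiers by a gene name table, and positions, lengths and exon overlaps from GENCODE release 29 on GRCh38. limma 3.58.1 in R 4.3.3 was fitted to log2 of the deposited value plus 1 for 13765 genes, those whose mean was 10 or more. All 16 libraries entered 1 fit with 4 group means and a mean trend, and p-values were Benjamini-Hochberg adjusted over all tested genes, two-sided, with calls under 0.05. The 5 comparisons were inhibitor against DMSO at each MYC level, the difference between these, and medium against high MYC within each treatment. The 40 genes and the further lists were chosen with earlier results of these data known, so their counts and medians are descriptions, set beside those of all tested genes. Every gene of the set is named. Of each further list, up to 3 called genes with the largest absolute difference in response and a mean of at least 50 are named, with XBP1, ATF4 and DDIT3.

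In simulated counts for the 13765 genes with 200 changed at medium MYC, limma recovered 45.4% of differences in response of 0.5 and 77.2% of those of 1 (log2), and called 7 unchanged genes. The changed genes were drawn at random from all tested genes, with a fixed coefficient of variation of 0.06. Alternatives covered scaling, pseudocount, filter, trend, groups in the fit, replicate blocks, count models on the recovered reads (edgeR 4.0.16, DESeq2 1.42.0), leaving out each library, and, chosen after seeing the data, a GC correction with and without the block. RefSeq promoter windows (GRCh38.p14) were matched by symbol.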

Additional observations from a re-analysis of the deposited data

Results flagged for a closer look

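The response to the inhibitor differed between the MYC levels in 29 genes by limma's test of the difference (adjusted p under 0.05), each larger at medium MYC. On the log2 scale the differences among the genes of chaperones and co-chaperones were 1.37 for SDF2L1, 1.27 for DNAJB9, 1.24 for HSPA5, 1.19 for CRELD2, 1.13 for MANF, 0.67 for CALR, 0.66 for HYOU1, 0.51 for DNAJB11, 0.48 for HSPA13, 0.48 for HSP90B1, 0.39 for DNAJC3 and 0.29 for CANX. On the log2 scale the differences among the genes of disulfide formation and exchange were 0.81 for PDIA4, 0.70 for TXNDC5, 0.36 for PDIA6, 0.35 for TXNDC11, 0.31 for P4HB and 0.24 for PDIA3. On the log2 scale the differences among the genes of ERAD and ER membrane quality control were 1.21 for HERPUD1, 0.51 for SYVN1, 0.43 for DERL2, 0.40 for SEL1L and 0.20 for EDEM1. On the log2 scale the differences among the genes of translocation, glycosylation and transport were 0.56 for SEC24D, 0.55 for SEC61A1, 0.50 for KDELR2, 0.42 for SSR3, 0.42 for SSR1 and 0.30 for STT3A.

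Of 156 groups of 4 libraries examined, 7 held a library whose gap to the nearest other, as a share of the range of the group, was above the critical value of the Dixon test, where chance alone passes this limit in about 1 of 20 groups. CANX in high-MYC inhibitor replicate 4 was at 6955, against 7177 to 7198 in the other libraries of its group, a gap of 0.916 of the range. HYOU1 in high-MYC inhibitor replicate 1 was at 1239, against 1294 to 1302 in the other libraries of its group, a gap of 0.872 of the range. TXNDC5 in medium-MYC inhibitor replicate 1 was at 376, against 421 to 428 in the other libraries of its group, a gap of 0.878 of the range. SYVN1 in medium-MYC control replicate 3 was at 1137, against 959.6 to 978 in the other libraries of its group, a gap of 0.890 of the range. DERL1 in medium-MYC control replicate 3 was at 649, against 675 to 680.3 in the other libraries of its group, a gap of 0.848 of the range. SELENOS in medium-MYC inhibitor replicate 1 was at 276, against 316 to 318 in the other libraries of its group, a gap of 0.957 of the range. SEC61A1 in high-MYC control replicate 3 was at 2009.8, against 2119 to 2122 in the other libraries of its group, a gap of 0.968 of the range. The 7 lay in 5 libraries, with 2 each in medium-MYC control replicate 3 and medium-MYC inhibitor replicate 1.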

How the results depend on the processing

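Over 195 results (39 genes in 5 comparisons) and 31 alternatives, 5917 of 6006 values kept their side of the threshold. Of the rest, 57 lost their call and 32 gained one, and 0 called values reversed their direction. In 10 uncalled results the sign differed under some setting (36 values, counted among the 5917). Counts of genes called higher ran over the alternatives from 35 to 37 for the inhibitor at medium MYC, 12 to 15 at high MYC and 28 to 34 for the difference, which has no fit on the compared groups only. The count called lower at high MYC was 4, against 1 under quantile normalization and 2 with equal library totals, no filter, no mean trend or edgeR, 5 with the compared groups only, where SDF2L1 was added, 3 with the nested replicate block, DESeq2 or GC correction, and 2 to 4 without 1 library. PDIA4 and SDF2L1 (the latter at medium against high MYC among inhibitor libraries) lost their calls under quantile normalization alone.

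At high MYC the median was 0.073 under quantile normalization and 0.050 with equal totals (0.023 to 0.064 without 1 library). At medium MYC it was 0.52 under both of these, 0.45 without a filter and 0.45 with GC correction, with or without the block (0.46 to 0.51). The difference ran from 0.40 to 0.45 without 1 library. Among controls it was -0.20 under quantile normalization, -0.19 with TMM factors and -0.20 with GC correction (-0.19 to -0.14). Among inhibitor libraries it was 0.27 with TMM factors, 0.35 without a filter and 0.27 with GC correction (0.28 to 0.31). The cause of these shifts was not tested.

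Correlations of same-numbered residuals ran from -0.154 to 0.239, the highest between the control libraries numbered 4. They cannot show whether same-numbered libraries were handled together. With the replicate block 37 genes were called higher at medium MYC, 13 higher and 4 lower at high MYC, and 29 for the difference, and with the nested block CALR lost its call at high MYC. Standard errors for the inhibitor at medium MYC were 0.13 for CRELD2, 0.16 for DNAJB9 and 0.14 for SDF2L1, and the part of depth in them was not tested. Differences of 0.5 on the log2 scale were recovered in 45.4% of simulated cases. Those cases were drawn from all tested genes, so this share is not that of the set. The median residual SD (log2) was 0.062 in the set and 0.094 over tested genes with a mean of at least 50.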
